A study of Caenorhabditis elegans with 2 samples.

Results

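Binding of PHA-4 was examined at the promoters of the aminoacyl-tRNA synthetase genes of C. elegans. The members were the protein-coding genes of the Ensembl release 115 annotation named by an amino acid letter, ars and a number, such as ears-2 or fars-3. This rule took 32 of 19973 nuclear protein-coding genes and used no measured value. PHA-4 is the FoxA-family factor that specifies the pharynx, and it was mapped by chromatin immunoprecipitation and sequencing (ChIP-seq), which recovers DNA bound by a tagged protein.

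The only group was mixed-stage embryos, with sexes pooled, of strain OP37, genotype unc-119(ed3) III; wgIs37, with 2 biological replicates. The labels give eGFP-pha-4 as the target and pha-4 as the antibody. The insertion wgIs37 adds tagged pha-4 to the worm's own copies. No control group is given in the labels, so the data hold no contrast between conditions. Whole embryos were used, so many cells with weak binding and few cells with strong binding cannot be told apart.

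Aminoacyl-tRNA synthetases join each amino acid to its transfer RNA, and the charged tRNA is then carried to the ribosome by an elongation factor. Cytosol and mitochondria each need charged tRNAs, made by enzymes of separate genes or, for a few amino acids, of 1 gene serving both. The enzymes fall into class I and class II by the fold of their catalytic domain. They are needed by every cell that makes protein and are not known as markers of the pharynx. By known roles and, where given, RefSeq product names, 16 members act in the cytosol, 12 in mitochondria and 4 (gars-1, hars-1, kars-1 and tars-1) in both.

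A list entry is a region that the peak caller reported, with a summit and a signal against control reads. Replicate 1 and replicate 2 each had 30000 entries, the list made from both together (the pooled list) had 21931, and the thresholded set had 2177. The thresholded set comprised the strongest pooled entries, with signals of 35.9 and above. An entry was counted at a gene when its summit lay between 1000 bp upstream and 200 bp downstream of an annotated 5' end. Signals were not scaled between lists, so replicates were compared by rank and no mean or SD over them was taken. The depth of each replicate is unknown, because no read totals were used. The targeted gene, pha-4, had a promoter entry at rank 385 in replicate 1 and rank 2 in replicate 2.

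Of the 32 synthetase genes, 5 had a thresholded promoter entry: ears-2, fars-3, aars-1, mars-1 and tars-1. That is 15.6% of the synthetase genes, against 9.16% of all protein-coding genes. The pooled signals at these promoters were 152.5, 53.3, 48.7, 41.8 and 38.6, in that order. The sequences at the summits are given here because they carry these entries, read from the RefSeq copy of the WBcel235 assembly (the ce11 build) on the strand of the synthetase gene, 5' to 3', with exons left out. Capitals mark matches on either strand to the word GAGAGA, to the word ACGCAGA or to the published PHA-4 consensus, which is T, then A or G, then TT, then G or T, then A or G, then C or T.

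ears-2, chrIV:390469-390559, minus strand: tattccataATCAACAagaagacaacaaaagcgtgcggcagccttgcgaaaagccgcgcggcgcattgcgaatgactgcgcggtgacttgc
fars-3, chrII:8464626-8464826, plus strand: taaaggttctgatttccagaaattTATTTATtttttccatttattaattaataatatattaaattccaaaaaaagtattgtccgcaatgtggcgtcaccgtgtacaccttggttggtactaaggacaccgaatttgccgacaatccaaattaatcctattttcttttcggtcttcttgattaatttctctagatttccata
aars-1, chrII:11464558-11464758, minus strand: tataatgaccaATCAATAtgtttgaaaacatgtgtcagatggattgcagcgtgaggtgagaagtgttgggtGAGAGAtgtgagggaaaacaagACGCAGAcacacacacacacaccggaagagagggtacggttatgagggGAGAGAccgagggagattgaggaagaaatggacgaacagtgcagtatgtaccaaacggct
mars-1, chrIV:11635662-11635862, minus strand: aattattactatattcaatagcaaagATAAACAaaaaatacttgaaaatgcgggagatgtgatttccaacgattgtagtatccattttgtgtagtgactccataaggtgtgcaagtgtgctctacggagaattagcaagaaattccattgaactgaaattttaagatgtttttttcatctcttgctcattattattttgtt
tars-1, chrII:11694552-11694752, minus strand: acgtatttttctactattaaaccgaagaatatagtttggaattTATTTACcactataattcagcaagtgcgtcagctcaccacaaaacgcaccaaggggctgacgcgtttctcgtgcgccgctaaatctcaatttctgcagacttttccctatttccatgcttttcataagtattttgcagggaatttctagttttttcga

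The ears-2 stretch is the whole gap between the 5' ends of ears-2 and uncp-18, and the other stretches reach 100 bp to each side of the summit. In windows of 201 bp centred on the summit, the PHA-4 consensus occurred at all 5 synthetase entries, against 58.4% of the 1363 thresholded promoter entries. The consensus was chosen after the data had been seen. Within 50 bp of the summit it occurred at 1 of the 5, ears-2, against 39.7% of all. The nearest match lay 21 bp from the summit at ears-2, where it runs past the printed stretch into the gene, 54 bp at tars-1, 71 bp at mars-1, 73 bp at fars-3 and 86 bp at aars-1. The stricter forkhead words TGTTTAC and TGTTTGC, which the consensus contains, were in none of the 5 windows and in 6.75% and 14.6% of all. These are matches of letters in a window, and the lack of a match says only that the letters are not in that window.

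Of the other words, GAGAGA and ACGCAGA both occurred in the aars-1 window and in none of the other 4. Over all thresholded promoter entries the shares were 41.2% and 19.1%. A count of 1 in 5 was thus below the background share for GAGAGA and close to it for ACGCAGA. These matches are therefore common among such entries and do not mark aars-1 as unusual. At aars-1 the ACGCAGA match lay 4 bp from the summit and the nearest GAGAGA match 26 bp from it. The GATA-type word TGATAA was in none of the 5 windows and in 7.34% of all. Base composition also varied: the windows held 30.8% GC at fars-3 and at mars-1, 38.8% at tars-1, 45.3% at ears-2 and 47.3% at aars-1, with a mean of 38.6% over the 5 and 43.9% over all thresholded promoter entries.

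The mitochondrial glutamyl-tRNA synthetase gene ears-2 had the strongest entry of the family. Its summit lay between genes, 20 bp upstream of the 5' end, in the entry at chrIV:390420-390562. The signal was 51.9 in replicate 1 (rank 192) and 96.8 in replicate 2 (rank 30), and the pooled rank was 51. By strongest pooled promoter signal, ears-2 stood at place 62 among the 19973 genes, and the next synthetase gene, fars-3, at place 1031. Both replicates thus placed ears-2 far above the rest of the family. The 5' end of uncp-18, on the opposite strand, lay 92 bp from that of ears-2, so the lists cannot assign this entry to either gene.

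The gene fars-3 encodes the beta subunit of the cytosolic phenylalanyl-tRNA synthetase. Its entry, chrII:8464594-8464857, had a summit 122 bp upstream and lay in no other gene's promoter window. The signal was 22.8 in replicate 1 (rank 1298) and 29.5 in replicate 2 (rank 1257), so the replicates ranked it alike. The partner subunit gene, fars-1, which encodes the alpha subunit, had a different record. Its strongest pooled entry had a signal of 26.6, below the threshold, 890 bp upstream of fars-1 and 152 bp upstream of rbm-5. In replicate 1 that site had a signal of 28.1 (rank 879), and in replicate 2 the entry that overlapped it had 6.003 (rank 24839). The site was therefore strong in replicate 1 and among the weakest in replicate 2. The third phenylalanyl gene, the mitochondrial fars-2, had no promoter entry in any list.

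The mitochondrial alanyl-tRNA synthetase gene aars-1 had an entry at chrII:11464526-11464789, with its summit 161 bp upstream. The signal was 17.9 in replicate 1 (rank 1925) and 30.8 in replicate 2 (rank 1155). This summit also lay 236 bp upstream of rga-1, a gene on the other strand. The cytosolic methionyl-tRNA synthetase gene mars-1 had an entry at chrIV:11635630-11635893, with its summit 275 bp upstream. Its signal was 21.0 in replicate 1 (rank 1496) and 19.5 in replicate 2 (rank 2640), a place that fell short of the strongest 2177 in replicate 2. The window of F58B3.6, with a 5' end 886 bp away on the other strand, also held it.

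The threonyl-tRNA synthetase gene tars-1, which serves both compartments, was the member just inside the threshold. Its entry at chrII:11694520-11694783 had a summit 359 bp upstream of an internal 5' end, within introns of tars-1 and of the overlapping kelch-repeat gene kel-1. The signal was 14.9 in replicate 1 (rank 2484) and 20.02 in replicate 2 (rank 2522). Neither replicate alone put it among its strongest 2177 entries. The summit lay nearer to a kel-1 5' end, at 176 bp.

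The members just below the threshold were cars-1, hars-1, dars-1, fars-1 and sars-2, with pooled signals of 32.5, 30.8, 27.2, 26.6 and 25.0. The cysteinyl gene cars-1 had 14.6 in replicate 1 (rank 2547) and 16.5 in replicate 2 (rank 3500), at a summit in its own coding sequence 231 bp upstream of an internal 5' end. The histidyl gene hars-1 had 12.9 in replicate 1 (rank 3026) and 17.5 in replicate 2 (rank 3142). These had similar ranks in both replicates, as had the mitochondrial seryl gene sars-2 at 10.6 (rank 4075) and 14.8 (rank 4261). The cytosolic aspartyl gene dars-1 was stronger by rank in replicate 1, with 18.2 (rank 1884) against 12.05 (rank 6326) in replicate 2. Its summit lay 118 bp upstream of dars-1 and 63 bp upstream of ctr-9, a gene for a subunit of the PAF1 transcription elongation complex.

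**Figure D1:**
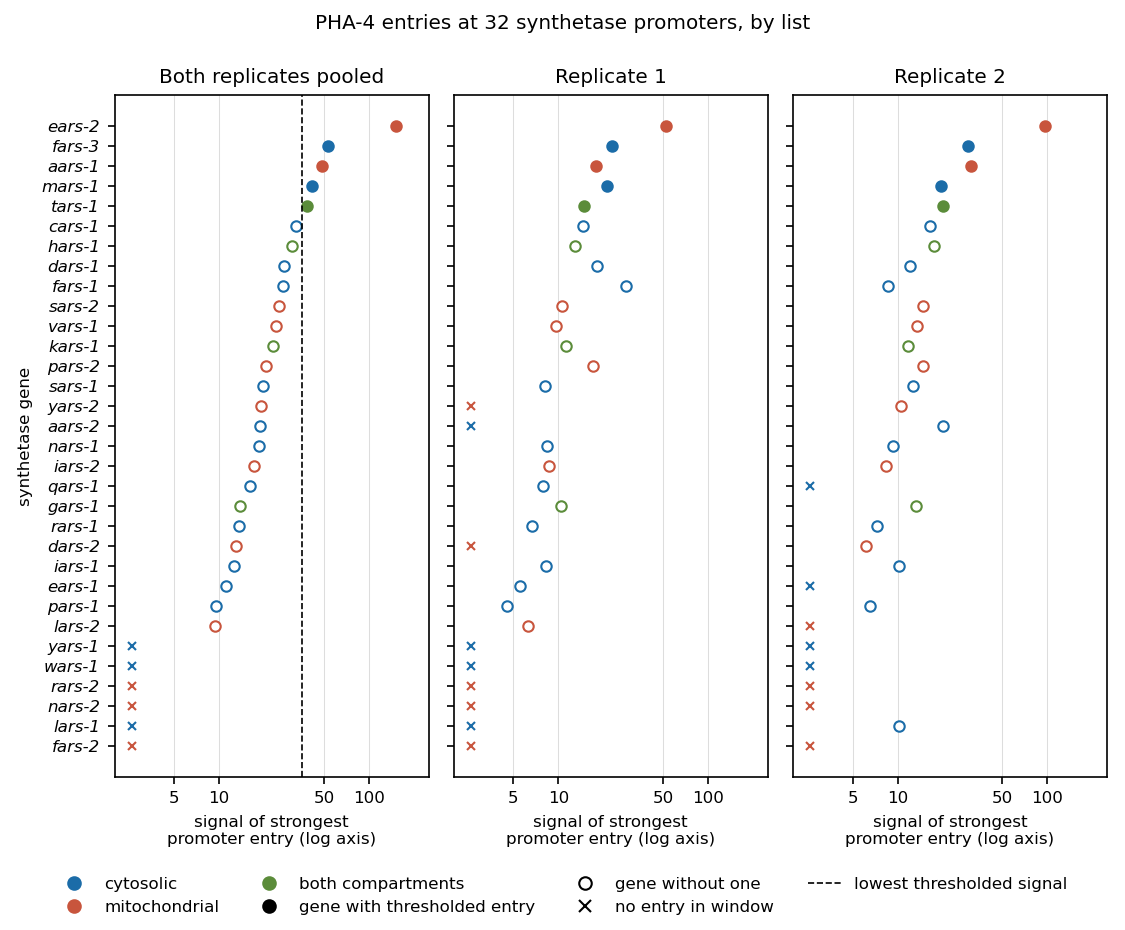
Signal of the strongest promoter entry (log axis) of each of the 32 synthetase genes in the pooled list, replicate 1 and replicate 2, coloured by compartment; filled points are genes with a thresholded entry, and crosses are genes with no entry in that list. In the pooled panel 5 genes lie right of the dashed line at 35.9, led by ears-2 at 152.5, and 6 have a cross.

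Weak entries were common at the synthetase promoters. An entry of any strength in the pooled list was present at 26 of the 32 synthetase genes (81.2%), against 36.5% of all protein-coding genes. In replicate 1 it was 23 genes (71.9%), against 44.7% of all, and in replicate 2 it was 24 genes (75.0%), against 43.0% of all. Entries in each replicate were present at 20 genes (62.5%), against 28.7% of all. These lists include weak entries that were kept as background, and no test of these shares was made. The median of the strongest pooled promoter signal, with genes without an entry set to 0, was 18.6 over the synthetase genes and 0 over all protein-coding genes.

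Among the strongest 2177 entries of each replicate the synthetase genes were fewer. Replicate 1 had 7 of the 32 (21.9%), against 9.61% of all protein-coding genes, and replicate 2 had 3 (9.38%), against 8.20% of all. The share in replicate 2 was thus close to the background. The 3 genes ears-2, fars-3 and aars-1 were among the strongest in both replicates (9.38%, against 6.22% of all). Replicate 1 added mars-1, dars-1, fars-1 and pars-2. At pars-2 the strong replicate 1 entry (17.0, rank 2071) was not at the site of the strongest pooled entry (20.4). There replicate 1 had 5.14 (rank 18535).

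**Figure D2:**
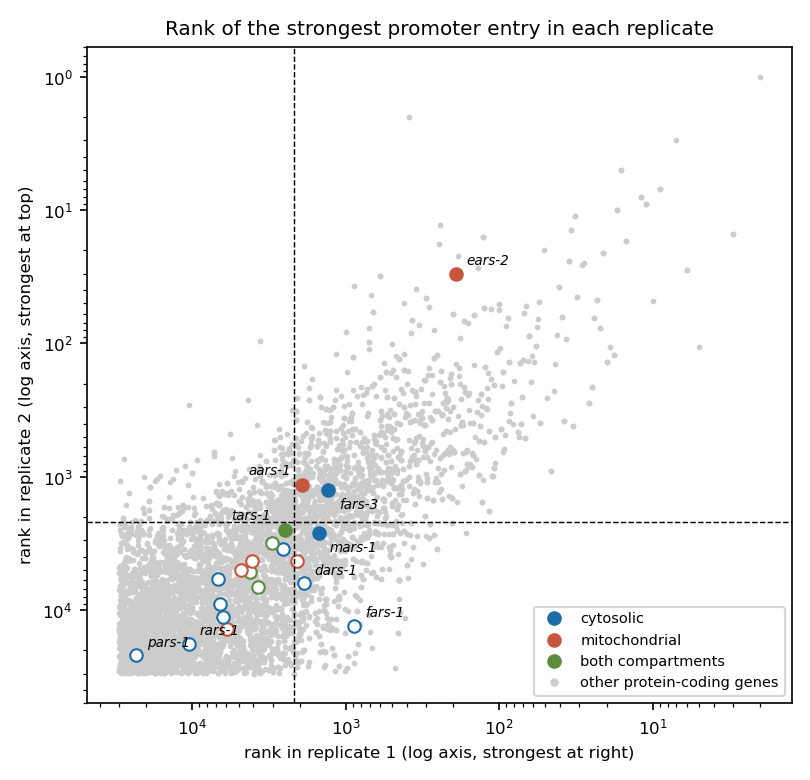
Rank of the strongest promoter entry in replicate 1 (horizontal, log axis, strongest at right) and replicate 2 (vertical, log axis, strongest at top) for the 20 synthetase genes with an entry in each, over the other protein-coding genes in grey; dashed lines mark rank 2177 and filled points are genes with a thresholded entry. The gene ears-2 stands near the strong end in both, and fars-1 at rank 879 in replicate 1 and rank 13117 in replicate 2, which belong to different sites, 895 bp and 34 bp upstream.

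The replicates ordered the family similarly but not closely. Across the 20 synthetase genes with an entry in each replicate, the Spearman correlation of the ranks was 0.67, and across the 5724 protein-coding genes with an entry in each it was 0.69. Genes that share an entry count once each here, so the points are not independent. Each rank is that of the strongest entry in the window of that replicate. For some genes, such as fars-1, pars-2 and iars-1, the ranks belong to different sites. The correlation is thus not one of the same entries throughout. The rank was better in replicate 2 for 5 of the 20 genes. For 13 of these 20 genes a replicate 1 summit and a replicate 2 summit lay within 50 bp of each other. That is 40.6% of the 32 members, against 15.3% of all protein-coding genes. Only 62.5% of the members and 28.7% of all genes had an entry in each replicate. The gap between 40.6% and 15.3% therefore includes this difference and is not a measure of summit agreement alone. At gars-1, the glycyl gene serving both compartments, the strongest entries had summits between its 2 annotated 5' ends and were measured from different ends. The replicate 1 summit lay 644 bp downstream of 1 end, and the replicate 2 summit 479 bp upstream of the other. Both entries overlapped the same pooled entry, with summits at 4 bp (replicate 1) and -223 bp (replicate 2) from its summit in genome coordinates.

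Several members had an entry in 1 replicate alone. The cytosolic alanyl gene aars-2 had 20.2 in replicate 2 (rank 2499) and no promoter entry in replicate 1, and yars-2 (10.4), lars-1 (10.2) and dars-2 (6.10) likewise had entries in replicate 2 alone. Of these, the cytosolic leucyl gene lars-1 had no entry in the pooled list. Entries in replicate 1 alone were at qars-1 (7.84), lars-2 (6.27) and ears-1 (5.54), the glutaminyl, mitochondrial leucyl and cytosolic glutamyl genes. Apart from aars-2, these strongest entries ranked at 7404 or beyond of 30000 in replicate 1 and at 8644 or beyond of 30000 in replicate 2. Only those of ears-1 and dars-2 lay below the median signal of their list, 5.70 in replicate 1 and 8.03 in replicate 2.

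No promoter entry in any list was found at 5 genes: fars-2, nars-2 and rars-2, which encode mitochondrial enzymes, and wars-1 and yars-1, the cytosolic tryptophanyl and tyrosyl genes. The nearest pooled summit lay 502 bp downstream of the 5' end at rars-2, outside the window. At wars-1 it lay 7606 bp downstream. The other 12 members with a pooled entry, beside those above, had pooled signals between 9.57 and 24.0. Of these, vars-1, kars-1, pars-2, sars-1, nars-1, iars-2, gars-1, rars-1, iars-1 and pars-1 had an entry somewhere in the window in both replicates. The genes aars-2 and yars-2 had entries in the pooled list and replicate 2. Signals in this range are below the threshold, and what share of them marks binding was not tested. At rars-1, iars-1 and pars-1 no pooled entry was overlapped by entries of both replicates, so the replicate entries lay at different sites.

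Summit positions were read within a window of 1000 bp upstream and 200 bp downstream, which itself favours upstream summits. Among the 26 synthetase genes with a pooled entry, the strongest summit lay within 400 bp upstream in 16 (61.5%), against 54.2% of the 7294 protein-coding genes with one. The median position was -159.5 bp for the synthetase genes and -239 bp for all. The summit lay between genes for 16 of the 26, in coding sequence for 5, in an intron for 3 and in an untranslated or non-coding exon for 2. At vars-1 (24.0), the mitochondrial valyl gene, it lay 41 bp upstream, and at rars-1 (13.6) it lay 978 bp upstream and 147 bp upstream of rpb-8, an RNA polymerase subunit gene.

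**Figure D3:**
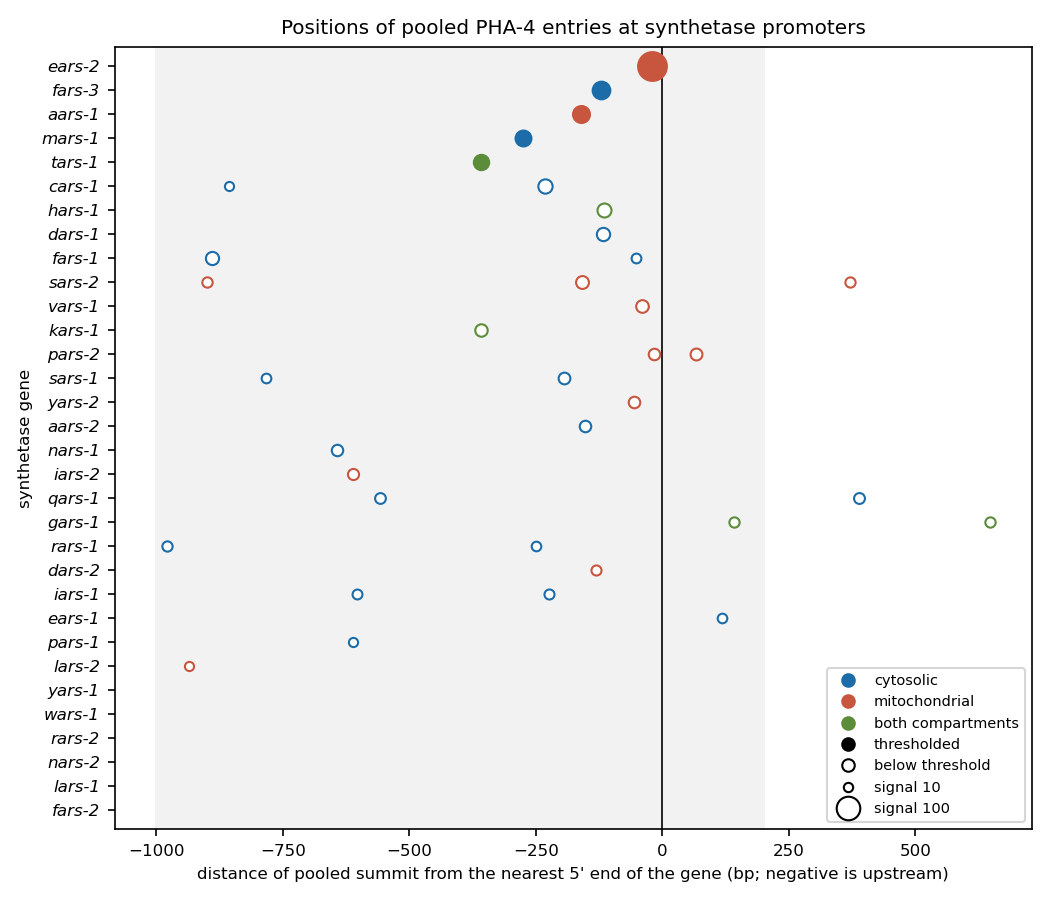
Distance of each pooled summit from the nearest 5' end of the synthetase gene in whose promoter window it lies (negative is upstream), with genes in order of strongest signal, point area growing with signal, and grey marking -1000 to 200 bp. The 5 filled (thresholded) summits lie between -359 and -20 bp; points right of the grey band belong to the window of a second, downstream 5' end.

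Many of these entries lay in promoter windows shared with a neighbour. The strongest pooled entry was shared with another protein-coding gene for 15 of 26 synthetase genes (57.7%), against 31.8% of all genes with a pooled entry. For 7 of the 26 (26.9%, against 18.5% of all) it lay nearer to the neighbour's 5' end. These were tars-1, dars-1, fars-1, rars-1, nars-1 (beside nduf-6, a mitochondrial complex subunit gene), sars-1 (beside C47E12.2) and iars-2 (beside C25A1.20). Of the 5 thresholded entries 4 were shared, and 53.2% of all genes with a thresholded entry shared theirs. Which gene an entry acts on was not tested.

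A thresholded entry was present at 2 of 12 mitochondrial genes (16.7%), 2 of 16 cytosolic genes (12.5%) and 1 of 4 serving both, against 9.16% of all protein-coding genes. Any pooled entry was present at 9 of 12 mitochondrial, 13 of 16 cytosolic and 4 of 4 genes serving both, against 36.5% of all protein-coding genes. Among the strongest 2177 entries of 1 replicate the cytosolic count differed between replicates: replicate 1 had 3 of 12 mitochondrial and 4 of 16 cytosolic genes (25.0% each, against 9.61% of all), and replicate 2 had 2 of 12 mitochondrial (16.7%) and 1 of 16 cytosolic genes (6.25%), against 8.20% of all. The median strongest signal, with absence as 0, was 17.96 for the mitochondrial and 17.3 for the cytosolic genes. The count of class I genes with a thresholded entry was 2 of 15, and that of class II genes 3 of 17. Of the 9 members whose vertebrate counterparts belong to the multisynthetase complex, 1 had a thresholded entry, mars-1 (11.1%, close to the 9.16% of all), and 8 had a pooled entry of any strength (88.9%, against 36.5% of all).

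Amino acids with separate mitochondrial and cytosolic genes allowed the enzymes to be set side by side. Of 11 such amino acids with both genes among the members, the mitochondrial gene had the stronger pooled entry for 7 and the cytosolic gene for 4. Methionine and valine, with 1 gene under another name, were not among the 11. Of the stronger genes only ears-2, aars-1 and fars-3 had a thresholded entry, so the other pairs were ordered by weak entries. For leucine, lars-2 had 9.41 (pooled rank 21125 of 21931) and lars-1 had none. The widest gap was for glutamate, with 152.5 at ears-2 and 11.1 at ears-1. For alanine the signals were 48.7 at aars-1 and 18.7 at aars-2, and for proline 20.4 at pars-2 and 9.57 at pars-1. For aspartate the order was the other way, with 12.9 at dars-2 and 27.2 at dars-1. In 5 of the 11 pairs, those for phenylalanine, leucine, asparagine, arginine and tyrosine, 1 side had no pooled promoter entry.

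Synthetase genes under other names were examined beside the members. The cytosolic valyl gene glp-4 had a pooled signal of 18.6, and Y105E8A.20, the mitochondrial methionyl gene that RefSeq names mars-2, had 33.1 (19.6 in replicate 1 and 12.6 in replicate 2). Neither passed the threshold, so the total stayed at 5 with both added.

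Genes that act next to the synthetases were described from lists. Elongation factors carry charged tRNA to the ribosome and move it along, and 6 of 10 elongation factor genes had a thresholded promoter entry (60.0%, against 9.16% of all protein-coding genes): eef-1G (150.3), eef-1A.1 (146.9), eef-2 (133.6), eef-1A.2 (112.7), eef-1B.1 (66.4) and the mitochondrial tufm-2 (39.3). The gene eef-1A.1 encodes the factor that delivers charged tRNA, and its signal was 73.8 in replicate 1 (rank 58) and 73.2 in replicate 2 (rank 104). The genes of the response to uncharged tRNA had none above the threshold: gcn-1 had 31.5, the kinase gene gcn-2 had 27.1 and the transcription factor gene atf-4 had 17.2.

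Other translation genes gave a range of shares. Over all protein-coding genes a thresholded entry was present at 9.16% and any pooled entry at 36.5%. A thresholded entry was present at 15.6% of synthetase genes, 18.6% of 70 mitochondrial ribosomal protein genes and 82.1% of 78 cytosolic ribosomal protein genes. Any pooled entry was present at 81.2% of synthetase genes, 58.6% of mitochondrial ribosomal protein genes and 94.9% of cytosolic ribosomal protein genes. The median strongest signals, with absence as 0, were 18.6, 15.6 and 75.4 in the same order. These lists are set side by side as counts, and the differences between them were not tested.

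**Figure D4:**
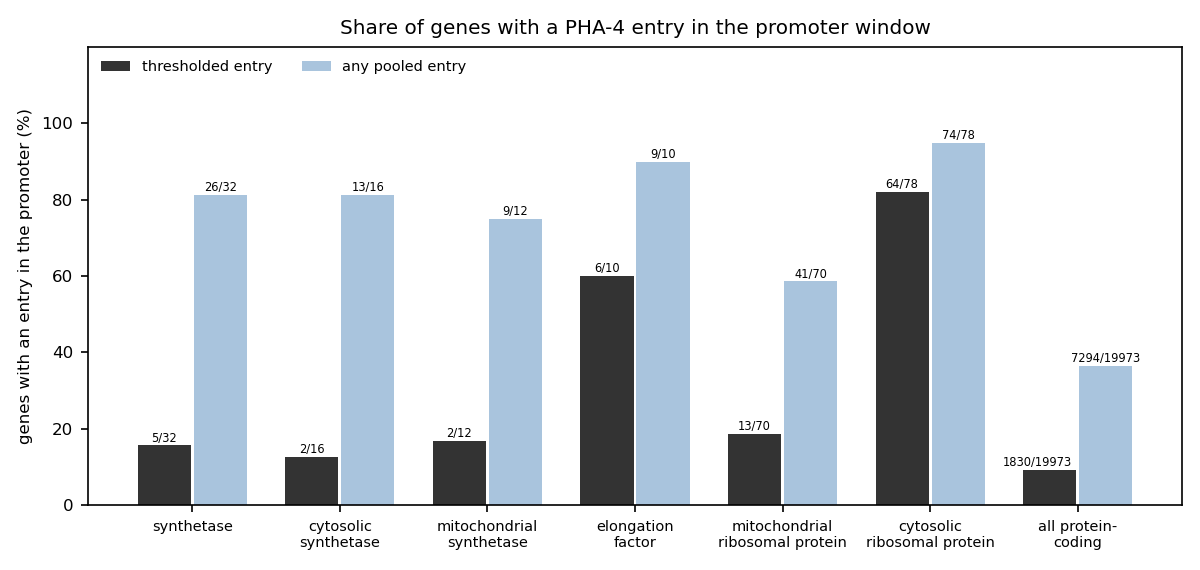
Percent of genes with a thresholded entry (dark bars) and with any pooled entry (light bars) in the promoter window, for synthetase genes, their cytosolic and mitochondrial members, elongation factor genes, ribosomal protein genes and all protein-coding genes; fractions above bars are gene counts. Synthetase genes had 5 of 32 and 26 of 32, against 1830 and 7294 of 19973 for all.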

How the data were processed

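The deposited narrowPeak lists on ce11 were used for 2 replicates of 1 group. The signal of each entry is the peak caller's own value against control reads as deposited by the authors, called per replicate and on pooled replicates, with the thresholded set derived by the irreproducible discovery rate, per the deposited file descriptions. For the caller, the aligner and the cutoff, names and values were not given in the sources used here. Replicate lists hold 30000 entries each, weak ones included. The ce10 lists were not used.

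Summits were placed against Ensembl 115 (WBcel235, the ce11 assembly) by the 1000 bp and 200 bp window. A summit in several windows counted for each gene. Words were searched on both strands in 201 bp windows. Window counting was tested on simulated data. The depth per sample is unknown, so no interval was computed, and 1 group allowed no test.

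Every member is named, with full values for thresholded members and the next 5. Members, lists and words were chosen with earlier results of these data known; the consensus and the added genes were chosen after seeing the data. Of 4 uncharged-tRNA response names, 3 were found. Tools were Python 3.11.15, scipy 1.17.1 and matplotlib 3.10.9.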

Additional observations from a re-analysis of the deposited data

How the results depend on the processing

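No paired analysis was possible because both samples form 1 group. Of 37 alternative values, 26 stayed within 1.5 times the reported count. Without 1 replicate, the 2177 strongest entries of the other gave 3 to 7 synthetase genes. Without replicate 1 there were 3 (9.38%, close to the 8.20% of all protein-coding genes): ears-2, fars-3 and aars-1, losing mars-1 and tars-1. Without replicate 2 there were 7 (21.9%, against 9.61% of all), adding dars-1, fars-1 and pars-2 and losing tars-1. The cytosolic count was 1 (6.25%) to 4 (25.0%) and the mitochondrial 2 (16.7%) to 3 (25.0%), against the same shares of all genes. Any entry was present at 24 genes without replicate 1 (75.0%, against 43.0% of all) and 23 without replicate 2 (71.9%, against 44.7% of all). In the stronger part of the thresholded set, 1088 entries, 1 synthetase gene remained, ears-2 (3.12%, against 4.90% of all protein-coding genes), with 1 mitochondrial and 0 cytosolic, so the share of synthetase genes was no longer above that of all genes. With the rank limit at 1088, replicate 1 had 2 (6.25%, against 5.32% of all), replicate 2 had 1 (3.12%, against 4.47% of all) and both had 1 (3.12%, against 3.10% of all), shares near or below the background. Replicate summits within 50 bp gave 13 in place of 20 genes, and the PHA-4 consensus within 50 bp gave 1 in place of 5 entries. With 2000 bp upstream the count was 6 (18.8%, against 11.8% of all protein-coding genes), adding iars-2. With the nearest 5' end alone it was 4 (12.5%, against 6.64% of all), losing tars-1. Unknown depth limits every statement on absent entries.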

Other observations

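The members are spread over 5 chromosomes, and the thresholded entries lay on chromosomes II (3 of 5 members: aars-1, fars-3 and tars-1) and IV (2 of 8 members: ears-2 and mars-1). None of the 9 members on chromosome I, 6 on III or 4 on V had one, and no member lies on X. Over all chromosomes 9.16% of protein-coding genes had one. That share was not computed for each chromosome, so these small counts show no chromosomal pattern. Across all 36 pooled entries in the members' windows, the closest annotated tRNA gene was 46354 bp from a summit, so none of these entries lay beside a tRNA gene. The next thresholded entry beyond the window was 1297 bp downstream of a 5' end of fars-1 and 1821 bp upstream of iars-2.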
